A study of Mus musculus with 10 samples.

Results

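The signal of 41 genes of DNA repair was followed in the neocortex of young and old mice. They are 12 genes of base excision and single-strand break repair, 11 of nucleotide excision repair, 3 of mismatch repair, 14 of double-strand break repair with the RecQ helicases, and Mgmt, which reverses a base lesion directly. The genes were taken from a list of symbols, and each was matched to the array through its gene identifier, a rule that uses no measured change, though the list was drawn up with earlier results of these data known. All 41 had a probe set, out of 17876 genes that the array annotation covered, and 34 were bright enough to be tested among 11963 genes tested in all. Mre11a is the older symbol of Mre11 and is used here.

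The samples were 10 arrays of neocortex, 1 for each of 10 male mice of the B6xC3 F1 hybrid strain. The 5-month group held mice 1 to 5 and the 30-month group held mice 2 to 6, with different animals behind a shared number. All mice were bought young, kept singly and given the same measured amount of AIN-93M control diet, so housing and diet were shared by both ages, per the labels' protocols. The arrays were Affymetrix whole-genome mouse arrays, on which several short probes against 1 transcript form a probe set. Its signal is a brightness on a linear scale, and signals of different probe sets are not comparable with each other as amounts of RNA. The comparison is between young adult and old animals of 1 sex and 1 hybrid strain, with no age in between.

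Cells lose and damage bases throughout life, and each kind of damage has its own repair route. In base excision repair a glycosylase removes an altered base, an endonuclease cuts the strand, and a polymerase and a ligase close the gap, with PARP enzymes marking the broken strand. Nucleotide excision repair cuts out a short stretch around a bulky lesion, mismatch repair corrects copying errors, and double-strand breaks are joined end to end or repaired from a sister copy. Neurons no longer divide, so in the neurons of the cortex these routes act in cells that do not replicate their genome.

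For 33 of the 41 genes RefSeq held promoter sequences, 38 in all, on the GRCm38.p6 assembly. The 250 bases before each start were searched on both strands for the GC box GGGCGG, for CCAAT, for the NRF1 motif GCGCATGCG and for the E2F motifs TTTGGCGC and TTTCGCGC. The 4 shown belong to Parp2 and Ung in base excision repair, the lower genes whose ages did not overlap, and to Ercc4 and Ddb1 in nucleotide excision repair, the higher genes with the smallest adjusted p. Each is written 5′ to 3′ on the gene's strand, with motif matches in capitals. In these sequences CCGCCC is a GC box on the opposite strand and ATTGG is CCAAT on the opposite strand.
Parp2, chr14:50807666-50807915, plus strand: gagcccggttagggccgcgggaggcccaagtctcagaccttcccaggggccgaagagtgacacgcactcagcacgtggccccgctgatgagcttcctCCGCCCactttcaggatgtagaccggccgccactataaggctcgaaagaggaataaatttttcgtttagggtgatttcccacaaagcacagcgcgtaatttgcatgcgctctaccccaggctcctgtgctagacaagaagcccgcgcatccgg
Ung, chr5:114130185-114130434, plus strand: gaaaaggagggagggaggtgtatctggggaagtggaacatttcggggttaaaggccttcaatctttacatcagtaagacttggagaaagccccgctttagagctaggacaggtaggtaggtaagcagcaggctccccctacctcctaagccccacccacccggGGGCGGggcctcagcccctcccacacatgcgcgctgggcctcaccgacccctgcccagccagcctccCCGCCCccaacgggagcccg
Ercc4, chr16:13109486-13109735, plus strand: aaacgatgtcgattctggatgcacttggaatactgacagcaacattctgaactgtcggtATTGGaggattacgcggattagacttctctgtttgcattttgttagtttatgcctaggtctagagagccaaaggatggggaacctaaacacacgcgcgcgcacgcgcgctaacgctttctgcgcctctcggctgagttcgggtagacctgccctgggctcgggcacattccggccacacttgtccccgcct
Ddb1, chr19:10605347-10605596, plus strand: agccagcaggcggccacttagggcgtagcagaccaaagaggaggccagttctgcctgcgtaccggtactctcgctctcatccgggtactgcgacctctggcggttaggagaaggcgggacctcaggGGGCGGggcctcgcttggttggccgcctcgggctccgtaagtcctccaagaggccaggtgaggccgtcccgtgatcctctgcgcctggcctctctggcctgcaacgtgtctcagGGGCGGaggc
Parp2 held 1 GC box, Ung 2 and Ddb1 2, and Ercc4 held 1 CCAAT. The GC box stood in 24 of the 38 repair promoters (63.2%) and in 32.7% of all 32851 promoters of the same length. All promoters cover 27025 genes and were not limited to genes on the array or genes tested. CCAAT stood in 18 of 38 (47.4%) against 33.8% of all. The NRF1 motif was found in 2 of 38 (5.26%), those of Lig4 and Xpa, against 1.45% of all, and an E2F motif in 2 of 38, those of Msh3 and Nthl1, against 0.654% of all. These matches describe letters in a window and are not evidence of binding, and the GC box was present in promoters of genes that were higher, lower and not called with age.

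Across the 34 tested repair genes, 8 were higher at 30 months (23.5%) and 5 were lower (14.7%), while 21 were not called; over all genes tested 46.3% were called one way or the other. Calls rest on limma with Benjamini-Hochberg adjustment over all genes tested, at an adjusted p under 0.05. Among all 11963 genes, 4068 were higher (34%) and 1466 were lower (12.3%), so the share of repair genes called higher was below the background and the share called lower was close to it. The median log2 change of the tested repair genes was -0.04, against 0.08 over all genes. All 5 mice of one age lay above all 5 of the other for 6 repair genes that were higher at 30 months (17.6%) and 2 that were lower (5.88%), with 24.5% and 5.75% over all genes. Of the 34 tested repair genes, 5 were called with a fold of at least 1.5 (14.7%), which are Ung, Lig3, Parp2, Ercc4 and Ddb1, against 5.62% of all tested genes. Of these 5, Ung passed the filter on low signal through its young arrays. Lig3 was called lower on its brightest probe set only, and another of its probe sets was called higher. At an unadjusted p under 0.05 there were 17 of the 34 repair genes and 6431 of all 11963 genes. Since the RNA came from whole tissue, fewer cells of a type and less RNA per cell cannot be told apart in any of these changes. By route, base excision and single-strand break repair held 3 lower and 0 higher genes of 10 tested, with Lig1 at the highest log2 change of 0.04 (adjusted p = 0.723). Nucleotide excision repair held 4 higher and 1 lower of 10, mismatch repair 1 higher of 3, and double-strand break repair 3 higher and 1 lower of 11. Whether the routes differed from each other was not tested.

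**Figure D1:**
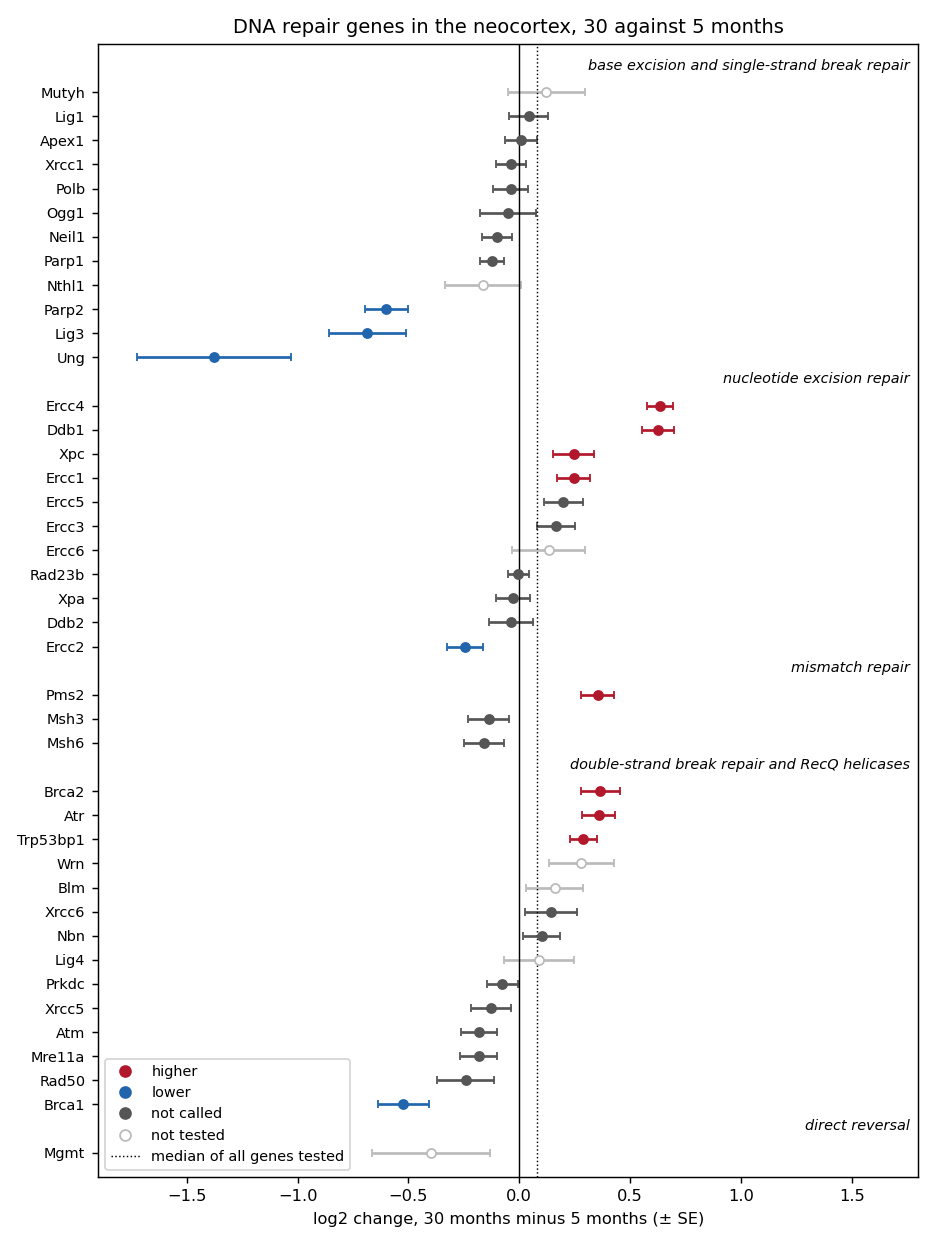
Each point is the log2 change in signal of 1 repair gene from 5 to 30 months with its standard error (5 arrays at each age), grouped by repair route, and open points mark genes under the filter. The dotted line marks the median of all genes tested at 0.08. Ung, Lig3 and Parp2 lie farthest to the left, and Ercc4 and Ddb1 farthest to the right.

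In base excision repair, the glycosylase Ung, the strand-break sensor Parp2 and, on its brightest probe set, the ligase Lig3 were lower in the old neocortex. For Lig3 another probe set was called higher (log2 change 0.54, adjusted p = 6.92e-04) and the mean of its tested probe sets was not called (-0.07, adjusted p = 0.438). Ung removes uracil from DNA, the first step of repair after cytosine deamination. Its signal was 242, 256, 239, 320.3 and 319.5 in the mice of 5 months, in order of mouse number, and 221, 158, 38.2, 118 and 82.0 in the mice of 30 months. All young mice lay above all old mice, and the old mice were far more spread, with mouse 4 lowest and mouse 2 nearest to the young range. The log2 change was -1.38 (SE 0.35, adjusted p = 0.00569), a signal 2.60-fold lower at 30 months. The standard deviation of log2 signal was 0.97 in the old and 0.21 in the young group. Without the lowest old mouse the log2 change was -1.01 (adjusted p = 0.00334), and without mouse 2 of the old group it was -1.64 (adjusted p = 9.73e-04). Ung passed the filter on low signal through its young arrays, since its mean log2 was 8.09 at 5 months and 6.72 at 30 months with the filter at 6.89. It had 1 probe set on the array.

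Parp2 encodes a poly(ADP-ribose) polymerase that binds broken strands and recruits repair factors. Its signal was 1305, 1286, 1513, 1408 and 1317 at 5 months and 1140.0, 829, 992, 832 and 755 at 30 months. The groups did not overlap, and mouse 2 was again the highest of the old mice. On the log2 scale the change was -0.60 (SE 0.10, adjusted p = 3.40e-04), or 1.52-fold lower. Lig3 encodes the DNA ligase that seals single-strand breaks with Xrcc1 and also serves mitochondrial DNA. On its brightest probe set the signal was 3412, 4093, 5292, 4906 and 5244 at 5 months and 4218, 3197, 2414, 2762 and 1966 at 30 months. Old mouse 2 lay within the young range and the other 4 old mice lay below every young mouse. This gave a log2 change of -0.69 (SE 0.17, adjusted p = 0.00576), and without old mouse 2 it was -0.83 (adjusted p = 6.26e-04). Old mouse 2 was the highest of the old mice for 3 of the 5 lower repair genes, which are Ung, Parp2 and Lig3.

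The remaining 7 tested genes of the route were not called. The glycosylase Ogg1, which removes oxidized guanine, had signals between 101 and 145 at 5 months and between 94.0 and 137 at 30 months with a log2 change of -0.05. Neil1, a glycosylase of oxidized bases, changed by -0.10 on that scale with signals between 500.4 and 618 at 5 months and between 459 and 539 at 30 months. Apex1, the endonuclease that cuts at the empty site, showed a log2 change of 0.01, with signals between 1468 and 1724 at 5 months and between 1371 and 1756 at 30 months. For these 3 genes the range of the old mice overlapped that of the young. Polb, which fills the gap, gave a log2 change of -0.04, the scaffold Xrcc1 gave -0.04 and the ligase Lig1 gave 0.04. Parp1, the main poly(ADP-ribose) polymerase, gave -0.12 (SE 0.05, adjusted p = 0.0748), and its probe sets differed, as described further on. Nthl1 and Mutyh, glycosylases of oxidized pyrimidines and of adenine opposite oxidized guanine, were under the filter, with signals of 83.5 to 158 for Nthl1 and 53.6 to 96.2 for Mutyh over all mice and log2 differences of -0.16 and 0.12 that were not tested.

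**Figure D2:**
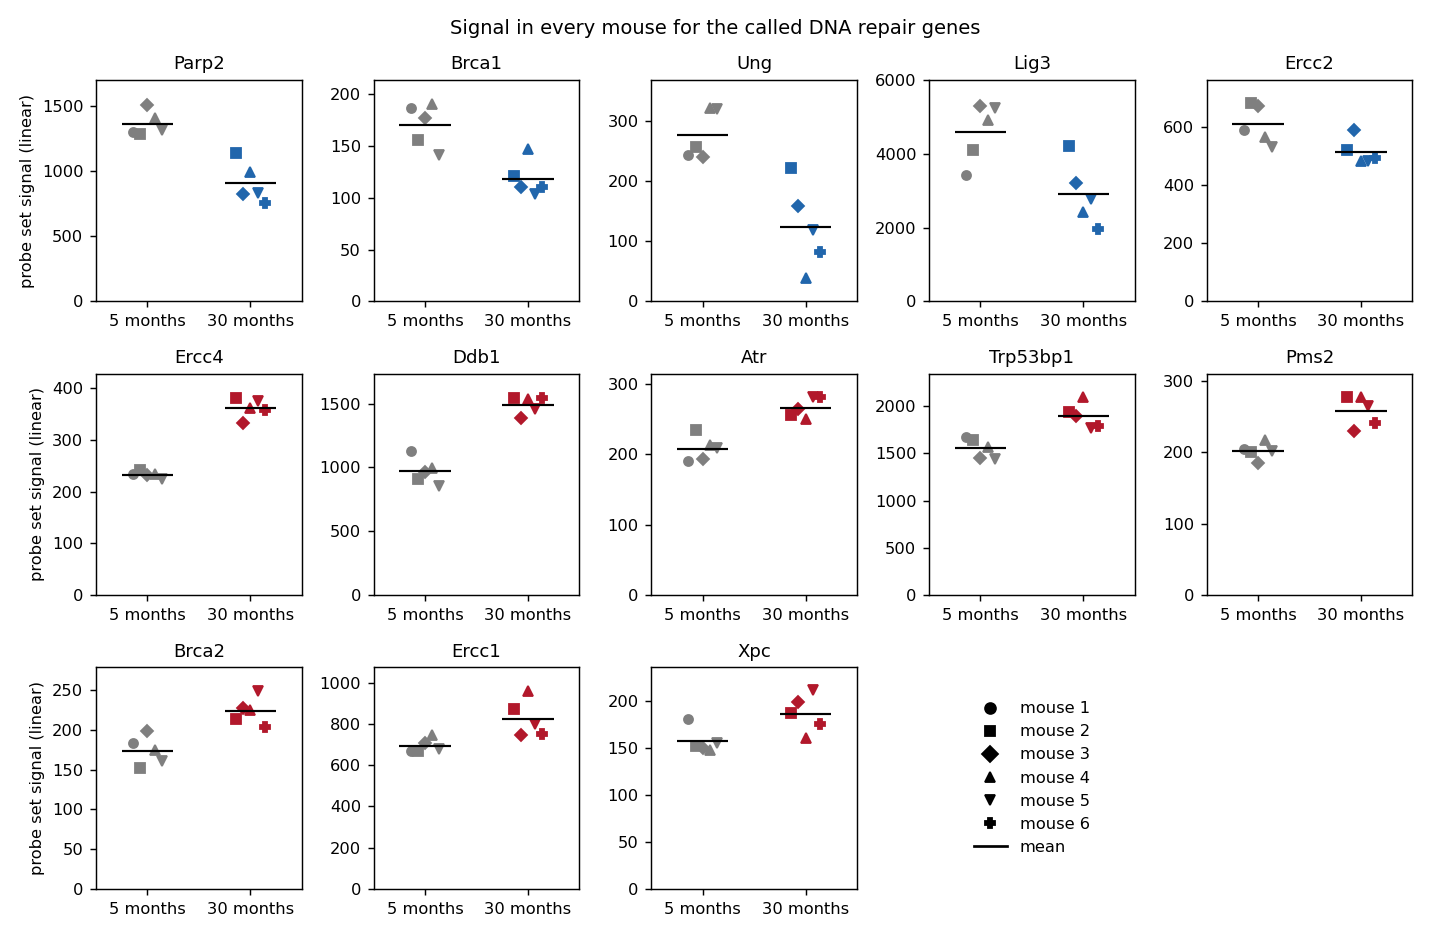
Linear probe set signal in each mouse for the 13 called repair genes, lower ones (blue) in the first line and higher ones (red) after it, with the 5-month mice in grey, 1 symbol for each mouse number and a bar at the mean of each age. The same symbol at both ages stands for different animals. The ages are apart without overlap for Ung, Parp2, Ercc4, Ddb1, Atr, Trp53bp1, Pms2 and Brca2.

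Nucleotide excision repair held the clearest rises. Ercc4 encodes XPF, the nuclease subunit that cuts on the 5′ side of a lesion, and its signal was 234, 241, 231, 235 and 224 at 5 months and 382, 333, 361, 376 and 359 at 30 months. Both ages were narrow, and the lowest old mouse lay well above the highest young mouse. The log2 change was 0.63 (SE 0.06, adjusted p = 1.03e-05), or 1.55-fold, and averaging both tested Ercc4 probe sets gave 0.38 (adjusted p = 5.90e-04). Ddb1 encodes the adaptor of the CUL4 ubiquitin ligase, which with Ddb2 recognizes damage from ultraviolet light and which also serves many other substrates. Its signal was 1129, 908, 965, 997 and 854 at 5 months and 1542, 1386, 1533, 1458 and 1544 at 30 months. Young mouse 1 was the highest of its group and still below every old mouse. The increase on the log2 scale was 0.63 (SE 0.07, adjusted p = 2.94e-05), or 1.54-fold.

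Ercc1, the partner that XPF needs for its activity, and Xpc, which senses distorted DNA across the genome, rose by less. Ercc1 read 671, 667, 709.6, 748 and 677 at 5 months and 873, 746, 962, 799.7 and 749.5 at 30 months. Its lowest old mouse lay just inside the young range, and the log2 change was 0.24 (SE 0.07, adjusted p = 0.0151). The description of that probe set names another transcript, 2610103M17Rik, and on the probe set of Ercc1's own full-length mRNA the log2 change was 0.03 (adjusted p = 0.785), so the call did not hold there. Xpc read 180.0, 152, 149, 147 and 155 at 5 months and 187, 198, 159.9, 211 and 175 at 30 months. Young mouse 1 stood above the other young mice and above the lowest old mice, and the log2 change was 0.25 (SE 0.09, adjusted p = 0.0421). That call was lost in 7 of the 10 fits that left out 1 array, with adjusted p-values up to 0.112. Its adjusted p was 0.0570 under quantile normalization and 0.0605 without the filter.

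Ercc2 was the one member of this route that fell. It encodes XPD, a helicase of the transcription factor TFIIH that opens DNA around the lesion and also acts in transcription. Its signal was 591, 684, 673, 568 and 533 at 5 months and 521, 589, 484, 483 and 493 at 30 months. The groups overlapped, with old mouse 3 inside the young range. The log2 change was -0.24 (SE 0.08, adjusted p = 0.0259), and it lost its call in 5 of the 10 fits that left out 1 array, with adjusted p-values up to 0.0698. The other TFIIH helicase, Ercc3 (XPB), was not called, with a log2 change of 0.17 and signals between 389 and 483 at 5 months and between 422 and 543 at 30 months.

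The other tested members of the route were not called. Ercc5 (XPG), the nuclease that cuts on the 3′ side, had signals between 169 and 219 at 5 months and between 209 and 245 at 30 months, a log2 change of 0.20 and an adjusted p of 0.0785. The damage verifier Xpa gave a log2 change of -0.03, and Rad23b, which stabilizes Xpc, gave -0.00 with signals between 2675 and 3052 at 5 months and between 2609 and 2996 at 30 months. Ddb2, the damage-binding partner of Ddb1, gave -0.04, with 4 old mice between 475 and 500.5 and mouse 6 at 672. The partners Ddb1 and Ddb2 thus had a log2 change of 0.63 in one and -0.04 in the other, and the difference between them was not tested. Ercc6 (CSB), which starts repair at stalled transcription, was under the filter at 25.5 to 43.9 over all mice.

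In mismatch repair, Pms2, an endonuclease subunit that acts after a mismatch is recognized, was higher. Its signal was 204, 201, 184, 217 and 202 at 5 months and 278, 229, 277, 265 and 242 at 30 months, without overlap. Its log2 change was 0.35 (SE 0.08, adjusted p = 0.00215), but averaging both tested Pms2 probe sets gave 0.17 and no call (adjusted p = 0.0835). Msh3 and Msh6, which take part in recognizing longer loops and single mismatches, were not called, with log2 changes of -0.14 and -0.16. Msh3 signals were between 366 and 489 at 5 months and between 340.3 and 441 at 30 months, and those of Msh6 were between 213 and 243 at 5 months and between 165 and 227 at 30 months. Both overlapped between the ages.

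Among genes of double-strand break repair, Brca2, Atr and Trp53bp1 were higher and Brca1 was lower. Brca2 acts in repair by homologous recombination, and its signal was 184, 152, 199, 175 and 160.2 at 5 months and 213, 227, 225, 248 and 204 at 30 months. The groups did not overlap, though the highest young mouse lay close to the lowest old one. Its log2 change was 0.37 (SE 0.09, adjusted p = 0.00425). Atr, the kinase that responds to stretches of single-stranded DNA, read 190.0, 235, 193, 213 and 209 at 5 months and 256, 264, 249.5, 281 and 281 at 30 months. No old mouse reached down to the young range, and the log2 change was 0.36 (SE 0.07, adjusted p = 0.00182). Other Atr probe sets lay under the filter and were not tested. One read 21.0 to 53.9 over all mice with a log2 difference of -0.60, and another 37.2 to 52.9 with 0.10. Trp53bp1 encodes 53BP1, which binds chromatin at breaks and favours end joining. Its signal was 1673, 1641, 1452, 1571 and 1441 at 5 months and 1936, 1901, 2100.3, 1772 and 1787 at 30 months, again without overlap. The log2 change was 0.29 (SE 0.06, adjusted p = 0.00205), and under quantile normalization of Trp53bp1 with all other genes it was 0.17 (adjusted p = 0.0288).

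Brca1 promotes resection of broken ends and recombination. The probe set called lower read 186, 156, 177, 190.4 and 141 at 5 months and 122, 110.2, 147, 104 and 110.5 at 30 months. The groups touched, since old mouse 4 lay above the lowest young mouse, and the log2 change was -0.52 (SE 0.12, adjusted p = 0.00249). This probe set is the one of 5 Brca1 probe sets that passed the filter, and its mean log2 at 30 months, 6.88, was just under that filter, so Brca1 passed through its young arrays. The brightest probe set built on a full-length Brca1 mRNA lay under the filter at 37.6 to 61.7 over all mice, with a log2 difference of 0.03 that was not tested.

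The kinase Atm, which responds to double-strand breaks, was not called at a log2 change of -0.18 (adjusted p = 0.0800), with signals between 397 and 532 at 5 months and between 377 and 463 at 30 months. Of the end-binding complex that activates it, Mre11a gave -0.18 (adjusted p = 0.0886), Rad50 gave -0.24 (adjusted p = 0.135) and Nbn gave 0.10 on the log2 scale. Rad50 was lowest in old mouse 6 at 262, where the other old mice lay between 364 and 434. The end-joining factors were not called either. Xrcc5 (Ku80) gave a log2 change of -0.13, Xrcc6 (Ku70) gave 0.14 and the catalytic subunit Prkdc gave -0.08. Lig4, the ligase of end joining, was under the filter at 67.8 to 109.6, as were the RecQ helicases Wrn at 80.5 to 145 and Blm at 54.4 to 84.1. The log2 differences of 0.09, 0.28 and 0.16 were not tested. Mgmt, which lifts methyl groups off guanine, read between 24.3 and 59.9 at 5 months and between 21.9 and 40.4 at 30 months and was not tested either. When all genes were fitted without the filter, the adjusted p-values of the 7 dim genes lay between 0.168 and 0.708, with Wrn lowest.

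The authors' deposited table marked 4034 of 45037 probe sets (8.96%) as differing, by a bound of the fold above 1.2 and a p-value of at most 0.1. Among the 41 repair genes, that table marked the brightest probe set of 6, and marks on their other probe sets were not looked up. The 8.96% covers all probe sets, dim ones included. It gave signed folds of 1.55 for Ercc4 and 1.54 for Ddb1, and -2.21 for Ung, -1.58 for Lig3, -1.46 for Parp2 and -1.45 for Brca1. All 6 were among the 13 called here.

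Repair genes with several probe sets often gave different answers. Of 92 probe sets of the 41 genes, 52 passed the filter and were tested each on its own, of which 14 were higher (26.9%) and 7 lower (13.5%), against 29.1% and 11.8% of all tested probe sets. Of 12 genes with more than 1 tested probe set, 10 had probe sets with different calls, 0 had all called the same way and 2 (Polb and Mre11a) had none called. Of the 13 called genes, 8 rest on 1 tested probe set. A probe set can read a different end or splice form of a transcript, or a neighbouring one, and which of these applied was not tested.

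Lig3 and Parp1 each had probe sets called in opposite directions. For Lig3, the brightest probe set is the one given above, with an adjusted p of 0.00798 in the fit over probe sets. The probe set of the full-length mRNA read 404, 409, 396, 439.6 and 428 at 5 months and 428, 361, 383, 432 and 366 at 30 months, which overlap, with a log2 change of -0.08 (adjusted p = 0.384). Another, from an expressed sequence tag listed under D11Wsu78e, an older name of Lig3, read 259, 247, 199, 244 and 267 at 5 months and 312, 361, 324, 376 and 399 at 30 months. There every old mouse lay above every young one, and the log2 change was 0.54 (SE 0.09, adjusted p = 6.92e-04). One more probe set of a full-length Lig3 mRNA lay under the filter at 25.6 to 70.1 and was not tested, and its log2 difference was -0.71. The direction of Lig3 therefore depends on the probe set, and so does its count among the lower genes.

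For Parp1, the brightest probe set read 1124, 1173, 1138, 1099 and 1086 at 5 months and 989.9, 965, 1106, 1025 and 1084 at 30 months and was not called. A second probe set of the same full-length mRNA read 944, 976, 935, 936 and 931 at 5 months and 767, 811, 773, 771 and 811 at 30 months. There all old mice were lower, with a log2 change of -0.26 (SE 0.05, adjusted p = 8.86e-04). The remaining one, from an expressed sequence tag, read 636, 661, 581, 689 and 644 at 5 months and 841, 767, 664, 835 and 694 at 30 months. The ages overlapped on it, and its log2 change was 0.24 (SE 0.08, adjusted p = 0.0252).

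In 8 more genes some probe sets were called and others were not. For Ercc1, beside the probe sets given above, one from an unnamed expressed sequence tag was not called at -0.16 (adjusted p = 0.149). Apex1 had 1 probe set that was higher by 0.33 on the log2 scale (adjusted p = 0.00103), while 2 others lay at 0.01 and -0.00. A second probe set of Ddb2, whose description names the neighbour Acp2, was higher by 0.29 (adjusted p = 0.00578). For Rad23b, a probe set from an unnamed expressed sequence tag was higher by 0.22 (adjusted p = 0.0318). A second probe set of Atm was lower, with a log2 change of -0.36 (adjusted p = 0.0338), and its brightest probe set had the same sign. Trp53bp1 had a second probe set called higher at 0.33 (adjusted p = 0.0283) and one at 0.14 that was not called. The second probe sets of Ercc4 and Pms2, from unnamed expressed sequence tags, were not called at 0.12 and -0.02.

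**Figure D3:**
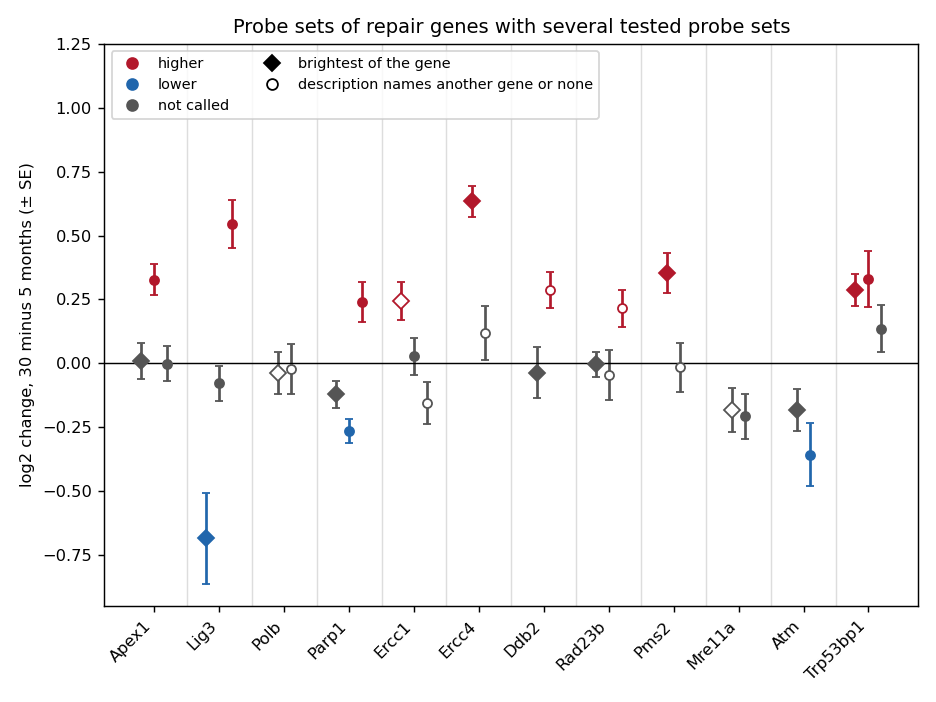
Log2 change from 5 to 30 months with its standard error for each tested probe set of the 12 repair genes with more than 1, the brightest of each gene as a diamond, and open symbols where the probe set's description names another gene or none. Lig3 and Parp1 have called probe sets on both sides of 0.

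The wider pathways were read from a further 70 repair genes, of which 54 were tested. Of these, 17 were higher (31.5%) and 10 were lower (18.5%), with a median log2 change of 0.03, against 34% higher, 12.3% lower and a median of 0.08 over all genes tested. In base excision repair 4 of 11 were higher and 1 was lower. The uracil glycosylase Smug1, which acts on the same base as Ung, rose by 0.48 on the log2 scale (adjusted p = 4.15e-05). Parp3 rose by 0.96 (adjusted p = 5.01e-05) and Parg, which removes poly(ADP-ribose), by 0.43 (adjusted p = 2.56e-04). The flap nuclease Fen1 was the lower one, with a log2 change of -0.47 (adjusted p = 0.0108). Ung and Smug1 thus differed in opposite directions, each by its own test.

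In nucleotide excision repair 6 of 15 further genes were higher (40%) and 3 were lower (20%), where all genes tested gave 34% and 12.3%. Cetn2, a partner of Xpc, rose by 0.46 on the log2 scale (adjusted p = 1.15e-04) and the TFIIH subunit Gtf2h4 by 0.40 (adjusted p = 7.72e-04). Ercc8 (CSA), which acts with Ercc6 in transcription-coupled repair, fell by 0.49 (adjusted p = 6.48e-04). In double-strand break repair 3 of 15 were higher and 3 lower. The ubiquitin ligases Rnf8 and Rnf168, which act upstream of 53BP1 at breaks, rose by 0.35 and 0.28 on that scale (adjusted p = 0.00140 and 0.00252). Rad51d and Xrcc2, which act in homologous recombination, fell by 0.35 and 0.38 (adjusted p = 0.00353 and 0.00445).

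Of 10 replication and gap-filling factors shared between routes, 3 were higher and 3 lower (30% each way, against 34% and 12.3% of all genes tested). Rpa1, the large subunit of the single-strand binding protein, rose by 0.63 on the log2 scale (adjusted p = 2.41e-05), while its small subunit Rpa3 fell by 0.43 (adjusted p = 0.00479). The clamp loader subunit Rfc3 fell by 0.57 (adjusted p = 0.00172) and the polymerase subunit Pold2 rose by 0.29 (adjusted p = 0.00778). In mismatch repair the only further gene tested, Mlh3, rose by 0.26 (adjusted p = 0.00718), and neither of the 2 demethylases of direct reversal was called.

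**Figure D4:**
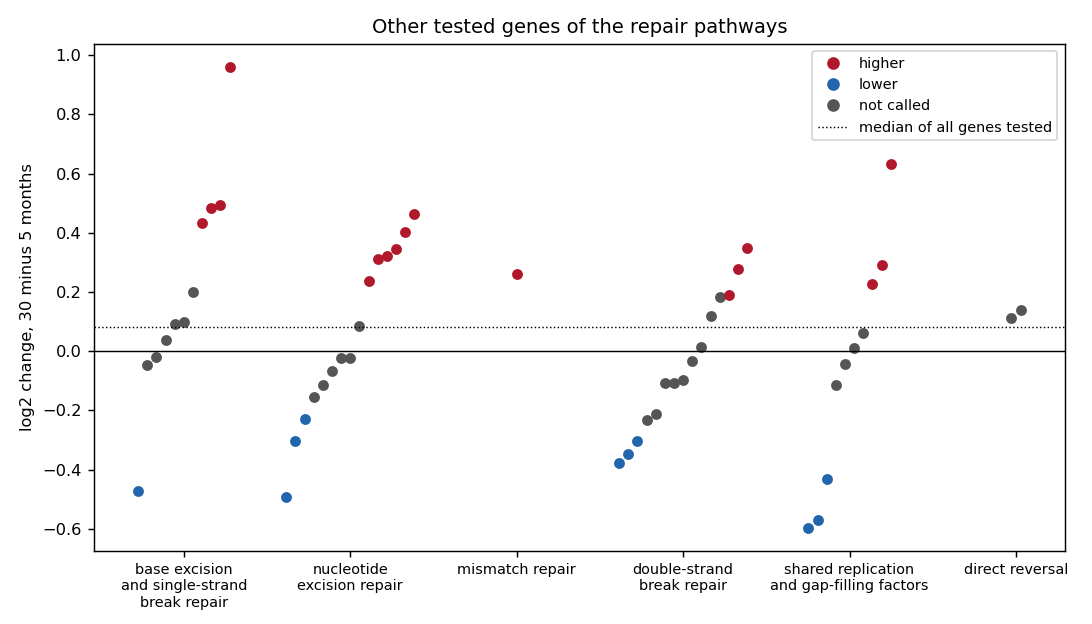
Log2 change from 5 to 30 months of the 54 further repair genes that were tested, 1 point a gene, ordered within each route by its change. Red points are the 17 higher genes and blue points the 10 lower ones, and the dotted line marks the median of all genes tested at 0.08.

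Markers of some cell types moved with age in the same tissue, where 34% of all genes tested were higher and 12.3% were lower. Sums of signal cover every listed marker with a probe set, tested or not, and the brightest probe sets weigh most in them. Of 10 neuron markers tested, 1 was higher, with a summed signal of 49723 to 53782 at 5 months and 50707 to 53036 at 30 months. Astrocyte markers were higher in 7 of 8, at 15495 to 17436 and 20578 to 22103. Microglia markers were higher in 7 of 9 tested and lower in 2, at 6920 to 7484 and 10074 to 11030. Oligodendrocyte markers were higher in 3 of 8 (37.5%), close to the share of all genes, with sums of 28776 to 30914 and 28543 to 35208. Endothelial markers were higher in 2 of 4 tested, with sums over 6 markers of 2248 to 2600 and 3244 to 3499. Of 15 markers of cycling cells, 14 had a probe set and 4 passed the filter. Of these 4, 3 (Cdc20, Mcm6 and Mcm2) were lower. Summed over all 14, the signal was 2682 to 3258 at 5 months and 1961 to 2628 at 30 months. Choroid plexus markers were lower in 2 of 2 tested, with sums over 5 markers of 8791 to 11467 and 3656 to 11921. Blood markers were lower in 0 of 2 tested, with sums over 5 markers of 2442 to 4547 and 2697 to 3824. The part of these shifts in the changes of repair genes was not tested. In the deposited table that names its columns by mouse, every 30-month column carries a prefix in its header that the 5-month columns lack, and what that prefix marks cannot be told apart from age.

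The number of repair genes called depended on how the arrays were scaled to each other. With the deposited scaling, 73.5% of all calls were higher at 30 months, and setting all arrays to the same median over all probe sets gave 76.7%, with 9 repair genes higher and 5 lower. Under quantile normalization 52.9% of all calls were higher and the median change of all genes was 0.00, and the repair genes split into 6 higher and 9 lower. With the median set equal over the genes tested, a scaling added after the data were seen, 47% of all calls were higher and the repair genes split into 6 higher and 13 lower. Lower calls among all genes, 1466 of 11963 (12.3%) with the deposited scaling, rose as well under these last 2 scalings. They numbered 2435 of 11965 under quantile normalization and 2862 of 11963 with the median set equal over the genes tested. The last scaling gave 2535 higher genes, against 4068 with the deposited scaling. Whether repair genes differed from all genes in this was not tested. Ercc4, Ddb1, Pms2, Brca2, Atr and Trp53bp1 were called higher, and Ung, Lig3, Parp2, Ercc2 and Brca1 lower, under all 4 scalings. Ercc1 and Xpc were called only under the first 2. The median log2 change of the repair genes was -0.04 against 0.08 over all genes with the deposited scaling and -0.13 against 0.00 under quantile normalization. Setting medians equal moves every gene of an array alike and so leaves that gap as it was.

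**Figure D5:**
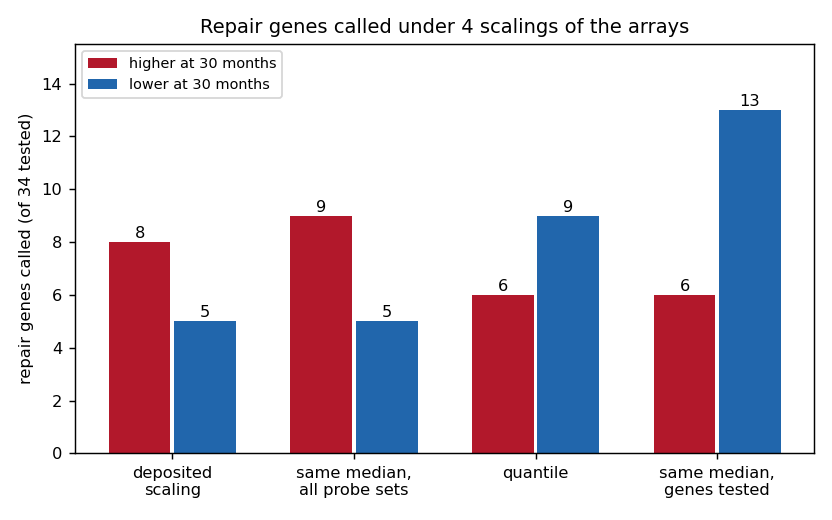
Number of the 34 tested repair genes called higher (red) and lower (blue) at 30 months under 4 scalings of the arrays, on an axis from 0. The higher count runs from 6 to 9 and the lower count from 5 to 13. Lower calls among all genes tested, 1466 of 11963 with the deposited scaling, also rose. They were 2435 of 11965 under the quantile scaling and 2862 of 11963 under the same median over the genes tested.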

How the data were processed

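Messenger RNA of the neocortex was measured on 10 arrays, 5 at each age, with 1 array per mouse. Both deposited tables held the same intensity, linear in scale, for each of 45037 probe sets on each array. The submitters' processing notes name GCOS with no version or role, and no source used here gives the background correction, the probe summary or the scaling. Array medians lay between 114.5 and 122.6. One deposited table also held the authors' comparison of the ages as a signed fold score with bounds and a p-value, of which 62 cells had no number, and omitted control probe sets, per the file headers. The scale of the deposited intensities was read from the values, which ran from 0.48 to 105818.

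Signals under 1 (55 in all) were raised to 1 before log2 was taken, and the arrays were not rescaled. Gene identifiers or accessions tied 36299 probe sets to 1 gene, 1261 to several and 7477 to none, and only the first were used for genes. The probe set with the highest mean log2 over all arrays stood for its gene, and it was tested if that mean exceeded the median of all probe sets, 6.89. This kept 11963 genes and 22518 probe sets. Age was tested with limma (lmFit and eBayes with a variance trend, two-sided, limma 3.58.1 in R 4.3.3), with Benjamini-Hochberg adjustment over all genes or all probe sets tested and a threshold of 0.05. An unadjusted p under 0.05 was reached by 6431 genes. Standard errors of log2 changes had a median of 0.07, and the number of arrays limits the precision. The fit was tested on simulated data. Figures used matplotlib 3.10.9, and tables pandas 2.3.3 with numpy 2.4.6, under Python 3.11.15.

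All 41 genes are accounted for, with values in every mouse for called genes and for genes with opposite probe sets. Of the wider pathway lists, at most 4 called genes a list are named, by smallest adjusted p, and some genes of these lists are counted but not reported by name here. The members, the lists, the markers and the tests were chosen with earlier results of these data known, so none of them is independent of the data. Alternatives covered scaling, filters, the choice of probe set, the variance model, thresholds, array weights, rank separation, a replicate block by mouse number, and fits without 1 array at a time. Mouse numbers name different animals at the 2 ages, so the main fit did not pair the arrays by number. The deviations of same-numbered arrays correlated at -0.42, 0.03, 0.08 and 0.12. These few values cannot show whether such arrays were processed together. Promoter sequences came from RefSeq, and array annotation names can be old.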

Additional observations from a re-analysis of the deposited data

Results flagged for a closer look

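Among 82 groups of 5 mice (41 repair genes at 2 ages), 4 held a mouse far from the others, where chance gives about 1 in 20. Mouse 6 of the 30-month group stood apart for Ddb2 at 672, with the other old mice between 475 and 500.5. The same mouse stood apart for Ercc6 at 40.6, with the others between 31.9 and 33.8. Mouse 1 of the 5-month group had the highest young Xpc signal at 180.0, against 147 to 155 in the others. Mouse 4 of the 5-month group had an Xrcc6 signal of 404, against 265 to 298. Of these genes, only Xpc was called, and without that young mouse its change was 0.30 on the log2 scale (adjusted p = 0.0200).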

How the results depend on the processing

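The directions of all 13 called repair genes were the same under every alternative that tested them. Except within a mean, no alternative read Lig3 from its probe set called higher (0.54) or Ercc1 from its probe set at -0.16. For these genes the same direction therefore holds only for the probe sets that the alternatives took. Ung, Parp2, Ercc4, Ddb1, Atr, Brca2 and Trp53bp1 were also called under every alternative that tested them. Brca1 was called under all but separation by rank, and Pms2 under all but the mean of all passing probe sets. Ung, Parp2, Ddb1, Brca2, Atr and Brca1 had 1 tested probe set each. For them the alternatives on the choice of probe set had to return the same log2 change. Quantile normalization gave 2435 lower genes of 11965 tested, and 9 lower repair genes of 34. Setting the same median over the genes tested, added after the data were seen, gave 2535 higher and 2862 lower genes of 11963. It gave 13 lower repair genes of 34. A filter at the 65th percentile left 21 repair genes among 9322 genes tested. Of the 21, 4 were higher and 3 lower, since it did not test Ung, Brca1, Brca2, Atr, Pms2 and Xpc. Under that filter 76.1% of the calls among all genes were higher, against 73.5% in the main fit. An adjusted p under 0.01 gave 839 lower genes, one under 0.1 gave 8 lower repair genes, and separation by rank gave 688 lower genes and 2 lower repair genes. Higher genes made up 77.2% of all calls at the threshold of 0.01 and 70.9% at 0.1. In these settings fewer genes were tested or the rule itself was stricter or looser, except for the scalings. Setting the same median over the genes tested shifted every gene of an array alike. The median log2 change of all genes was -0.02 there, against 0.08 with the deposited scaling. For quantile normalization the cause was not tested. Lig3 was not called with the mean of all its passing probe sets (-0.07, adjusted p = 0.438) or with plain probe sets preferred (-0.08, adjusted p = 0.366). The mean of all passing probe sets gave log2 changes of 0.38 for Ercc4 and 0.17 for Pms2. Ercc1 was lost with the same 2 choices and when a probe set whose description names the gene was preferred, an alternative added after the data were seen. Leaving out each array in turn gave 3544 to 4124 higher and 1188 to 1553 lower genes, 7 to 9 higher repair genes and 4 to 6 lower ones. With mouse number as a replicate block over the 8 arrays that share numbers, 8 repair genes were higher and 5 lower. Of the calls among all genes in that fit, 77.2% were higher. The same 8 arrays without the block gave the same counts but not the same genes, since Ercc2 was not called there (adjusted p = 0.0651) and Atm was (adjusted p = 0.0333).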
